A study of Mus musculus with 6 samples.

Results

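This report describes 9 genes that encode transcription factors of the dental mesenchyme, read from RNA-seq libraries of the inner enamel epithelium (IEE) of the mandibular molar. They are *Msx1*, *Pax9*, *Barx1*, *Lhx6*, *Lhx8*, *Dlx1*, *Runx2*, *Sp7* and *Sox9*. They were found by their symbols, and all 9 were among the 18152 genes of the expression table and among the 14131 genes that passed the filter on low counts. The IEE was cut from sections of E18.5 mouse heads by laser capture microdissection, which takes a chosen area of tissue under a microscope. The control group was 3 libraries of Kdf1 fl/fl mice, given as WT in some labels, and the conditional knockout (cKO) group 3 libraries of K14-Cre;Kdf1 fl/fl mice. All mice carried the floxed *Kdf1* alleles on a C57BL/6J background, and the Cre recombinase of the cKO mice was driven by the keratin 14 promoter, which is active in epithelial cells and not in mesenchyme. Whether a library held the tissue of 1 embryo or of several is not given in the sources used here, so the p values measure the spread between these libraries.

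Teeth form between an epithelium, whose IEE becomes the enamel-making ameloblasts, and a neural crest-derived mesenchyme, which forms the dental papilla, the dentin-making odontoblasts and the supporting bone. The homeobox factors *Msx1*, *Barx1*, *Dlx1*, *Lhx6* and *Lhx8* and the paired-box factor *Pax9* set up the odontogenic identity of the jaw mesenchyme, and loss of *Msx1* or *Pax9* stops mouse teeth at the bud stage. *Runx2* and its downstream factor *Sp7* (osterix) drive osteoblast differentiation, and both are also used in odontoblasts. *Sox9* is the master factor of cartilage and is also made in dental epithelium.

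The libraries held between 14713918 and 16675133 counts, and a count of 0 allows 3 counts, or at most 0.198 CPM (counts scaled to the size of the library). The deleted gene *Kdf1* stood at 52.5, 44.3 and 52.7 CPM in control and was counted once over the 3 cKO libraries. Epithelial markers were abundant in every library, but the summed level of 12 of them was 13576 to 45438 TPM (a level scaled for transcript length and library size) in control and 5059 to 8772 TPM in cKO. *Amelx*, the amelogenin gene, made up much of this sum in control but at most 699 TPM of it in cKO, and without it the ranges were 9023 to 13229 TPM and 4886 to 8073 TPM. Mesenchyme markers were also present in every library. Their sum over 12 genes, led by *Vim* and *Lum*, was 1079, 2980 and 1122 TPM in control and 4705, 4124 and 2176 TPM in cKO, and 11 of 12 were higher on average in cKO. In such bulk samples a change in the number of cells of a type and a change in RNA per cell cannot be told apart. Endothelial markers (7 of 7 higher, 143 to 195 against 194 to 574 TPM) and immune markers (7 of 7 higher, 58.6 to 113 against 92.5 to 349 TPM) were higher as well. The odontoblast list (1 of 6 higher, 317 to 1662 against 145 to 457 TPM) and the osteoblast list (2 of 5 tested higher, 855 to 1867 against 702 to 1142 TPM) were not. Cartilage markers had lower sums but were higher in cKO (3 of 3 tested higher, 10.9 to 34.3 against 19.6 to 79.9 TPM). Of that list, *Matn1* was at 3 counts or fewer in every library. Skeletal muscle markers summed to at most 1.73 TPM. The part of these cell types in the values below was not tested.

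*Msx1*, *Pax9*, *Lhx8* and *Runx2* were the factors for which every cKO library lay above every control library. The 250 bases before their transcription starts are shown because these are the genes that were higher in cKO without overlap. They come from RefSeq, build GRCm38.p6, and read 5′ to 3′ on the strand of the gene, with capitals for matches to the motifs searched. The windows are chr5:37824586-37824835 on the minus strand (*Msx1*), chr12:56695221-56695470 on the plus strand (*Pax9*), chr3:154330561-154330810 on the minus strand (*Lhx8*) and chr17:44814628-44814877 on the minus strand (*Runx2*).
Msx1: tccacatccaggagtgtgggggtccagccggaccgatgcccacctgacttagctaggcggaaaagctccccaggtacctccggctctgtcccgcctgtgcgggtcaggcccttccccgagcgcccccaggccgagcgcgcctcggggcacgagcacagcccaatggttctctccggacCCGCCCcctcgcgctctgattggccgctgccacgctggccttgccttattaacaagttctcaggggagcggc
Pax9: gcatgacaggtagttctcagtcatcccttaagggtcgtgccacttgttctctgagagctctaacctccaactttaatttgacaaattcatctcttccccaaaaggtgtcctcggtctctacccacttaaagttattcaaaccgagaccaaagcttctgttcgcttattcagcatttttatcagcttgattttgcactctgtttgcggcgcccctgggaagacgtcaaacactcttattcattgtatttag
Lhx8: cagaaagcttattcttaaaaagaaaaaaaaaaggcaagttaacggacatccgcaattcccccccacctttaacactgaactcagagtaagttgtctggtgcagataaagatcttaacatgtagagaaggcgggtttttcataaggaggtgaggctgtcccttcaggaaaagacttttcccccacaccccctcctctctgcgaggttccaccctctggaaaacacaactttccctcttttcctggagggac
Runx2: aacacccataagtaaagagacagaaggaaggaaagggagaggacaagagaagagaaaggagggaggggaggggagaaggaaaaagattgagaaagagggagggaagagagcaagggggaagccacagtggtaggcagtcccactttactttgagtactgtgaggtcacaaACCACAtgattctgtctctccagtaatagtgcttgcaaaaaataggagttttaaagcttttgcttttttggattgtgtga

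The motifs searched, on both strands, were the homeodomain core TAATTA, the RUNX motif TGTGGT, the SOX motif ACAAAG, the E-box CAGCTG and the SP/KLF motif GGGCGG, and no match overlapped another in the 4 windows shown. The table held 9 promoters of 7 factors, 3 of them for *Lhx6*. No promoter held the homeodomain core, which 4.84% of all 32851 promoters of this length did. The RUNX motif was in 1 of the 9, that of *Runx2* itself, against 14.0% of all promoters. The SP/KLF motif was in 4 of 9 against 32.7%, with 1 match for *Msx1* and 8 for *Barx1*. The windows differed in base composition, with a GC content of 43.6% for *Pax9*, 46.0% for *Lhx8* and 44.8% for *Runx2* against 68.0% for *Msx1* and *Dlx1* and 85.6% for *Barx1*. The median over all promoters was 52.4%.

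Of the 9 factors, 7 were higher and 2 were lower on average in cKO libraries. *Pax9* and *Lhx8* differed the most, by 7.03 and 5.97 times in mean CPM, and *Runx2*, *Barx1*, *Msx1* and *Lhx6* by 2.79 to 3.10 times. *Sp7* was nearly level and *Sox9* was lower in cKO. The criterion of the study asks for a log2 fold change of 1 or more in either direction and an adjusted p no larger than 0.05. By the quasi-likelihood test of edgeR 0 of 9 factors met it, where 0.432% of all tested genes did (0.142% higher and 0.290% lower in cKO). The same test gave 8 of 9 an unadjusted p no larger than 0.05, against 24.5% of all tested genes, and 6 of 9 a log2 fold change of at least 1, against 9.23%. At a looser adjusted p of 0.1, 4 of 9 met it as higher, against 3.16% (4.73% in both directions). DESeq2 called 5 of 9, all higher, against 5.05% of all genes as higher and 1.88% as lower (6.94% together). EdgeR with the replicate number as a block also called 5 of 9 as higher, against 4.16% (6.09% together with the 1.92% that were lower). No label states that same-numbered libraries are pairs. The block was taken up from correlations in these same data, so its p values depend on that reading. Without replicate 3 of cKO, edgeR called 3 of 9 as higher, against 2.29% (3.23% together with the 0.945% that were lower). *Msx1*, *Pax9*, *Lhx8* and *Runx2* were the 4 that both tests called. *Lhx6* was added by DESeq2 and *Barx1* by the block. The groups did not overlap in CPM for 4 factors that were higher, where 14.5% of all tested genes showed this, and for 1 that was lower, where 16.2% did (30.7% together).

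**Figure D1:**
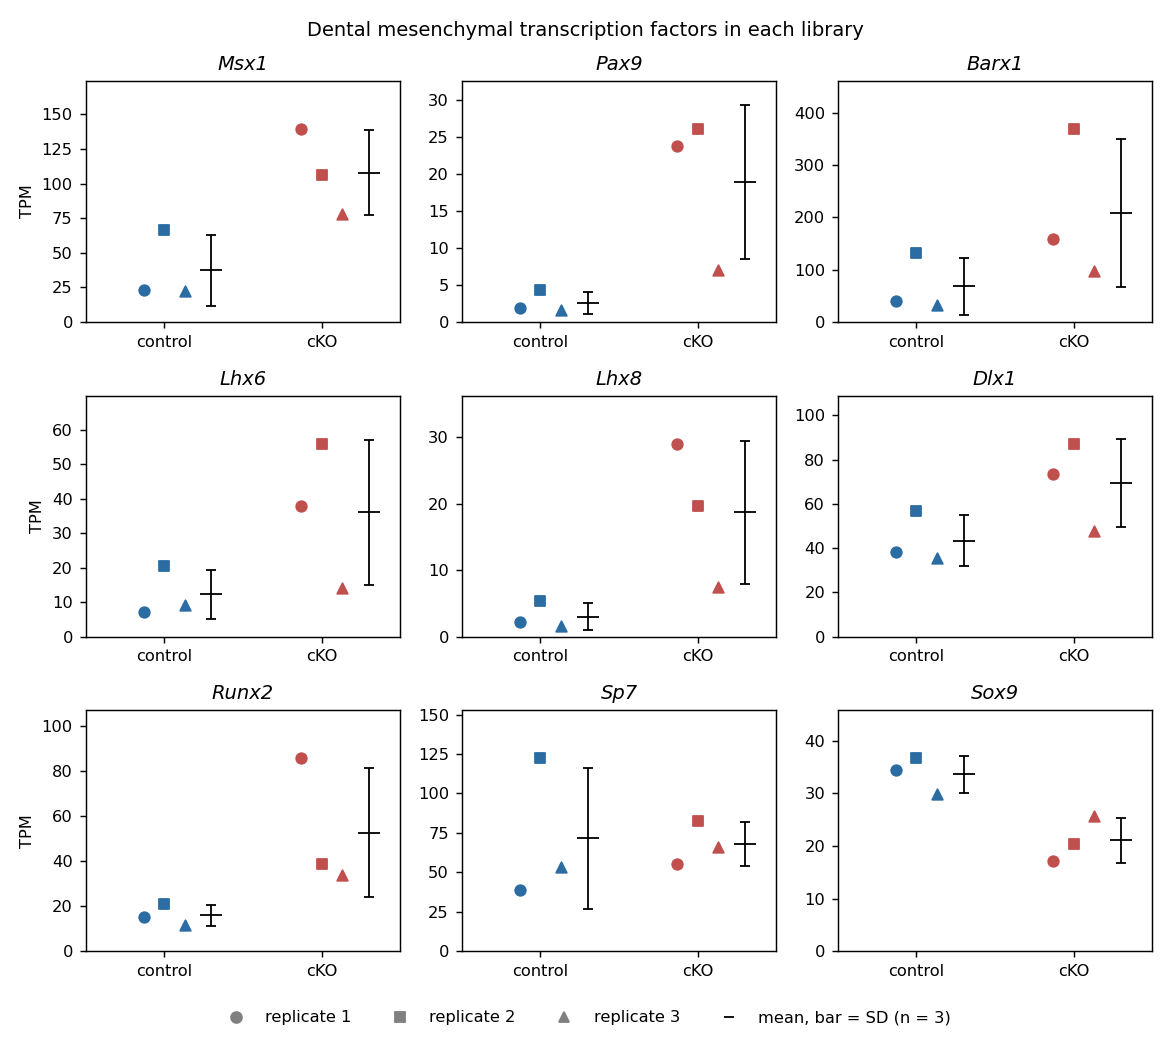
TPM of each factor (linear axis from 0) in the 3 control libraries (blue) and the 3 cKO libraries (red), with the mean and SD in black. *Msx1*, *Pax9*, *Lhx8* and *Runx2* do not overlap between the groups, *Sox9* is lower without overlap, and replicate 2 is the highest control library in every panel.

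*Msx1* (gene identifier 17701) encodes a homeodomain repressor that sustains *Bmp4* expression in tooth mesenchyme. It was at 22.9, 66.6 and 22.5 TPM in the control libraries and at 139, 107 and 78.1 TPM in the cKO libraries. The groups did not overlap, although replicate 2 of control stood close to the lowest cKO library. Mean levels were 35.4 ± 22.0 and 99.6 ± 21.7 CPM (SD, n = 3 per group), and the fold change on the log2 scale was 1.49 (SE 0.41). After adjustment p was 0.0988 by edgeR, 0.00440 by DESeq2 and 0.0387 in edgeR with the replicate block. Without replicate 2 of control the log2 fold change was 2.12, with an adjusted p of 0.0478 in edgeR. It was 0.0879 to 0.334 when any other library was left out.

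*Pax9* (gene identifier 18511) acts with *Msx1* in the same mesenchyme. It was at 1.89, 4.29 and 1.65 TPM in control and at 23.7, 26.0 and 7.03 TPM in cKO. Replicate 3 of cKO was well below the other two and still above every control library. The means were 5.92 ± 3.02 and 41.6 ± 22.0 CPM (SD, n = 3 per group), or 2.81 higher on the log2 scale (SE 0.54). Adjusted p values were 0.0637 in edgeR, 2.33e-06 in DESeq2 and 0.00626 in edgeR with the replicate block. Without replicate 3 of cKO the edgeR value was 0.0476, and it was 0.0856 to 0.273 when any other library was left out.

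*Lhx8* and *Lhx6* are LIM-homeobox factors that act redundantly in the mesenchyme of the molar. *Lhx8* (gene identifier 16875) was at 2.15, 5.36 and 1.54 TPM in control and at 29.0, 19.6 and 7.46 TPM in cKO. As with *Pax9*, replicate 3 was the lowest of its group without reaching the control range. The fold change on the log2 scale was 2.57 (SE 0.58), between 2.93 ± 1.83 and 17.5 ± 9.24 CPM (SD, n = 3 per group). After adjustment p was 0.0726 by edgeR, 0.000162 by DESeq2 and 0.0140 under the block. EdgeR gave 0.0476 without replicate 3 of cKO and 0.0882 to 0.285 when any other library was left out. *Lhx6* (gene identifier 16874) was at 7.23, 20.4 and 9.21 TPM and at 37.9, 55.9 and 14.2 TPM in the same order. Here the groups overlapped, because replicate 2 of control was above replicate 3 of cKO. Its log2 fold change was 1.48 (SE 0.53), with an adjusted p of 0.152 in edgeR, 0.0286 in DESeq2 and 0.0522 in edgeR with the block. *Lhx6* was 3.36, 3.81 and 5.98 times the *Lhx8* level in TPM in the control libraries and 1.31, 2.85 and 1.91 times in the cKO libraries, so this ratio, examined after the values were seen, did not overlap between groups.

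*Barx1* (gene identifier 12022) marks the proximal, molar-forming mesenchyme of the jaw. It was at 40.8, 132 and 33.0 TPM in control and at 159, 368 and 98.5 TPM in cKO. Replicate 2 was the highest of both groups, and the control replicate 2 lay above replicate 3 of cKO. The log2 fold change was 1.59 (SE 0.63), between 42.4 ± 31.6 and 128 ± 87.7 CPM (SD, n = 3 per group), with an adjusted p of 0.181 in edgeR and 0.166 in DESeq2. Within same-numbered pairs, which no label states to be pairs, the log2 difference in CPM was 1.80, 1.53 and 1.51. This is a far smaller spread than within the groups. With the block, edgeR gave 1.62 (SE 0.12) and an adjusted p of 0.00363. Replicate 2 of cKO weighed on the unpaired value, which was 0.89 without it and 2.39 without replicate 2 of control.

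*Dlx1* (gene identifier 13390), a homeobox factor of the first pharyngeal arch, differed less. It was at 38.1, 56.9 and 35.4 TPM in control and at 73.5, 87.2 and 47.8 TPM in cKO. Replicate 2 of control was again above replicate 3 of cKO. The log2 fold change of 0.62 (SE 0.23) stayed under 1, with adjusted p values of 0.163 in edgeR, 0.0914 in DESeq2 and 0.0388 in edgeR with the block.

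*Runx2* (gene identifier 12393) was at 15.4, 20.8 and 11.7 TPM in control and at 85.6, 38.6 and 33.9 TPM in cKO. Its groups did not overlap, and replicate 1 of cKO was more than 2 times the next library. Mean levels of 51.8 ± 11.8 and 160.3 ± 75.4 CPM (SD, n = 3 per group) differed by 1.63 on the log2 scale (SE 0.34), and by 1.19 without that library. Adjusted p values were 0.0674 in edgeR, 9.93e-05 in DESeq2 and 0.0241 in edgeR with the block. In edgeR the value was 0.0491 without replicate 3 of cKO and 0.0959 to 0.278 when any other library was left out.

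*Sp7* (gene identifier 170574), which acts after *Runx2*, differed little between the groups. It was at 39.0, 122 and 53.4 TPM in control and at 55.2, 82.9 and 66.3 TPM in cKO. All cKO libraries lay inside the control range. The log2 fold change was -0.10 (SE 0.39), with adjusted p values of 0.896 in edgeR, 0.917 in DESeq2 and 0.967 in edgeR with the block, where the sign turned (0.015). It was 0.44 without replicate 2 of control. The *Runx2* level in TPM was 0.394, 0.170 and 0.218 times that of *Sp7* in control and 1.55, 0.466 and 0.512 times in cKO. This ratio, also examined after the values were seen, did not overlap between the groups.

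*Sox9* (gene identifier 20682) was the factor that went the other way. It was at 34.5, 36.6 and 29.8 TPM in control and at 17.2, 20.4 and 25.7 TPM in cKO. Every cKO library was below every control library. The means were 76.1 ± 3.19 and 46.4 ± 12.3 CPM (SD, n = 3 per group), and the log2 difference between groups was -0.71 (SE 0.19). Adjusted p values were 0.0937 in edgeR, 0.0189 in DESeq2 and 0.0492 in edgeR with the block, but the fold change was under the limit of the criterion in each.

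**Figure D2:**
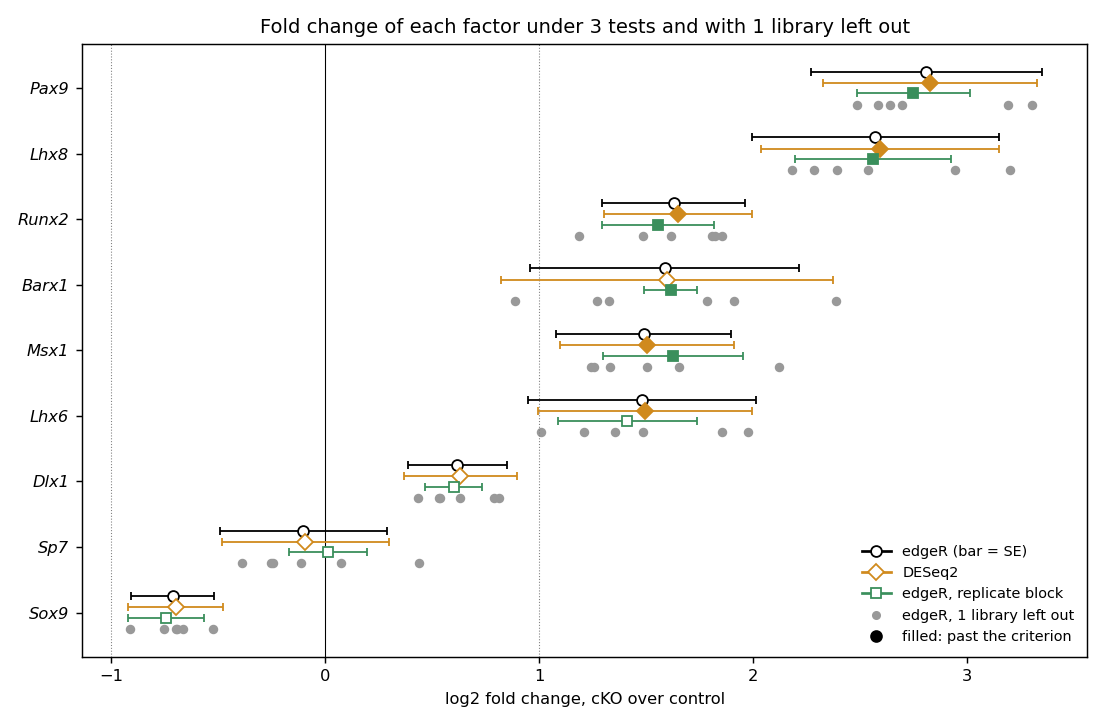
Log2 fold change of each factor (x axis) in edgeR, DESeq2 and edgeR with the replicate block, with SE bars and filled symbols where the criterion is met. Grey points are the 6 edgeR fits that each leave out 1 library, and *Sp7* is the factor whose points lie on both sides of 0.

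The factors were ordered by TPM, which is scaled for length. In control libraries *Sp7* (71.5 ± 44.5 TPM, SD, n = 3) and *Barx1* (68.5 ± 54.8) had the highest means, then *Dlx1* (43.5 ± 11.7), *Msx1* (37.3 ± 25.4), *Sox9* (33.7 ± 3.49), *Runx2* (15.9 ± 4.59), *Lhx6* (12.3 ± 7.12), *Lhx8* (3.02 ± 2.05) and *Pax9* (2.61 ± 1.46). Neighbours in this order overlapped except at 2 steps, from *Sox9* to *Runx2* and from *Lhx6* to *Lhx8*. In cKO libraries the order began with *Barx1* (209 ± 142 TPM, SD, n = 3) and *Msx1* (108 ± 30.6), followed by *Dlx1* (69.5 ± 20.0) and *Sp7* (68.1 ± 13.9). All neighbours overlapped there. *Pax9* and *Lhx8* still had the lowest means, at 18.9 ± 10.4 and 18.7 ± 10.8 TPM. *Sox9* was next at 21.1 ± 4.28 TPM, but it was above *Pax9* in only 1 of the 3 cKO libraries. By mean TPM, *Pax9* was at percentile 17.0 of all tested genes in control and at 49.0 in cKO, *Msx1* at 68.4 and 89.7, and *Sox9* at 65.7 and 52.0.

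The libraries of a group varied together across the factors. In control, replicate 2 was the highest library for all 9 factors in TPM and in CPM, and it also had the highest mesenchyme marker sum of its group. In cKO, replicate 3 was the lowest for 7 of 9, and it had the lowest mesenchyme marker sum. Compared within same-numbered pairs, 7 of 9 factors were higher in cKO in 3 of 3 pairs, where 25.7% of all tested genes were, and *Sox9* was lower in 3 of 3, where 27.0% were. *Sp7* was higher in 2 of 3 pairs.

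**Figure D3:**
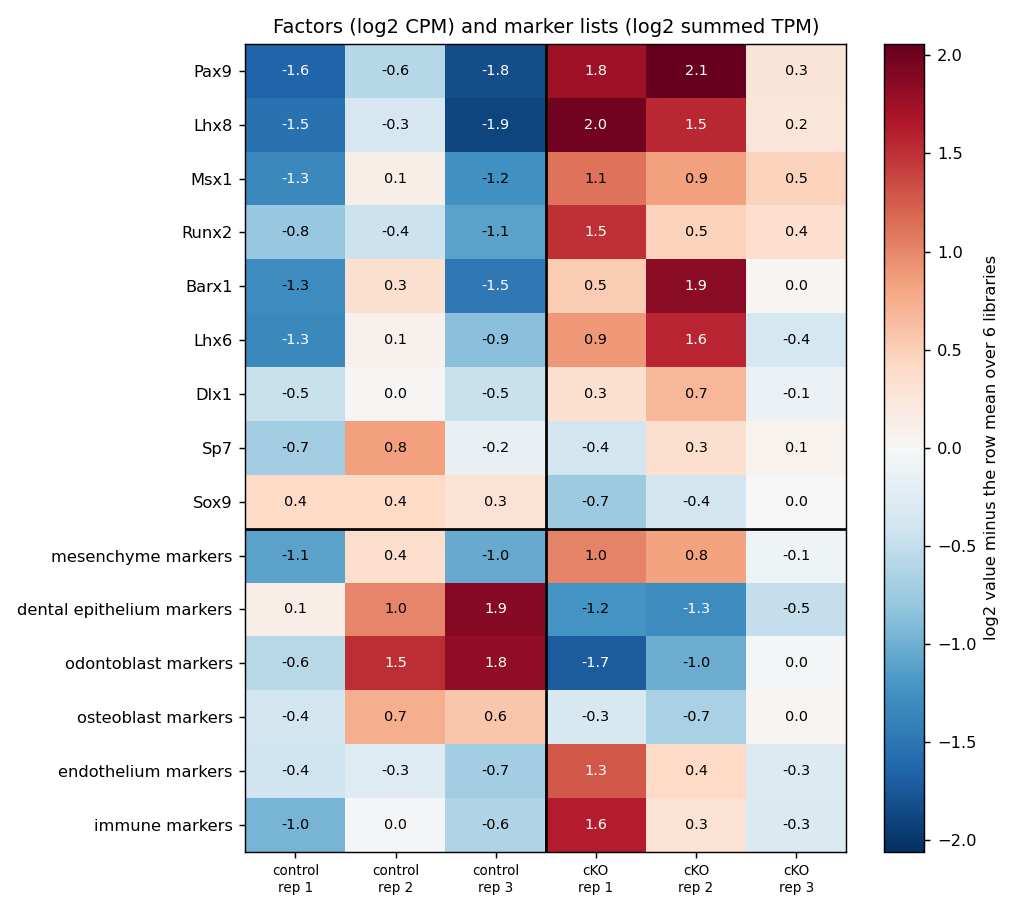
Log2 CPM of each factor and log2 summed TPM of 6 marker lists in the 6 libraries (columns), each row minus its own mean. Replicate 2 is the highest control library in every row of a factor, and replicate 3 is the lowest cKO library in 7 of the 9.

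The patterns of the factors over the 6 libraries were compared by the root mean square difference of log2 CPM, each centred on its own mean. This difference is not scaled to how much a gene varies, so pairs of genes that vary little tend to have small values. *Sp7* and *Sox9* (0.62), for example, came out slightly closer than *Msx1* and *Dlx1* (0.63), which were both higher in cKO. Of the 36 pairs of factors, the closest were *Pax9* and *Lhx8* (0.26), *Barx1* and *Lhx6* (0.37) and *Msx1* and *Runx2* (0.39), and the farthest were *Pax9* and *Sox9* (1.92). Among the 11598 tested genes with a mean of at least 5 CPM, *Msx1* was nearest to *Zeb2* (0.12), a zinc-finger factor of mesenchymal cells, and *Mxra8* (0.15). *Pax9* was nearest to *Lhx8* itself and then to *Tfap2b* (0.30), a neural crest factor. *Lhx8* was nearest to *Col3a1* (0.18), a fibrillar collagen, and *Clmp* (0.20). *Barx1* was nearest to *Tmem26* (0.16) and *Aff2* (0.22), *Lhx6* to *Pcp4l1* and *D630003M21Rik* (0.18 each), and *Runx2* to *Lifr* (0.09) and *Pde3b* (0.11). *Dlx1* was nearest to *1700025G04Rik* (0.06) and *Ptch1* (0.07), *Sp7* to *Ablim3* (0.10) and *Lrrc15* (0.19), and *Sox9* to *Fam222a* (0.07) and *Mtss1* (0.13).

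Since the mesenchyme markers differed between the libraries, each factor was also given per 1000 TPM of the 12 mesenchyme markers in the same library, a description made after the values were seen. Summed over the 9 factors this was 187, 156 and 177 TPM in control and 132, 195 and 174 TPM in cKO, and the groups overlapped, whereas with the geometric mean of the markers as the reference the sum was lower without overlap (0.834 times in the mean). *Pax9* was at 1.75, 1.44 and 1.47 against 5.04, 6.31 and 3.23 TPM per 1000, and *Lhx8* at 1.99, 1.80 and 1.37 against 6.17, 4.75 and 3.43. Both were higher without overlap on this scale too, by 3.13 and 2.78 times in the mean. The 12 markers differed unevenly, so these values depend on the markers chosen. *Vim* and *Lum*, with 29.4% and 19.3% of the sum over all libraries, had edgeR log2 fold changes of 0.66 and 0.82. The others ran from -0.05 (*Dcn*) to 3.09 (*Postn*), with 2.32 for *Col3a1*, the first and second named after their values were seen. Whether *Pax9* and *Lhx8* differed beyond the share of mesenchyme was not tested. *Msx1* was at 21.2, 22.4 and 20.1 against 29.6, 25.8 and 35.9 TPM per 1000. With the geometric mean, *Pax9* and *Lhx8* remained higher without overlap (2.66 and 2.37 times), whereas *Msx1* overlapped. *Barx1*, *Lhx6*, *Dlx1* and *Runx2* overlapped on both scales. *Sp7* was at 36.2, 41.0 and 47.6 against 11.7, 20.1 and 30.5 TPM per 1000. *Sox9* was at 32.0, 12.3 and 26.6 against 3.66, 4.95 and 11.8. Both were lower without overlap, and they were also with the geometric mean. The share of all tested genes without overlap was not computed on this scale, so the number of such factors has no background here. The marker sum was mostly larger in cKO, so a factor that is level in TPM, such as *Sp7*, comes out lower on this scale by construction. The same division lowers *Sox9* further, which is also made in dental epithelium and was already lower in TPM.

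**Figure D4:**
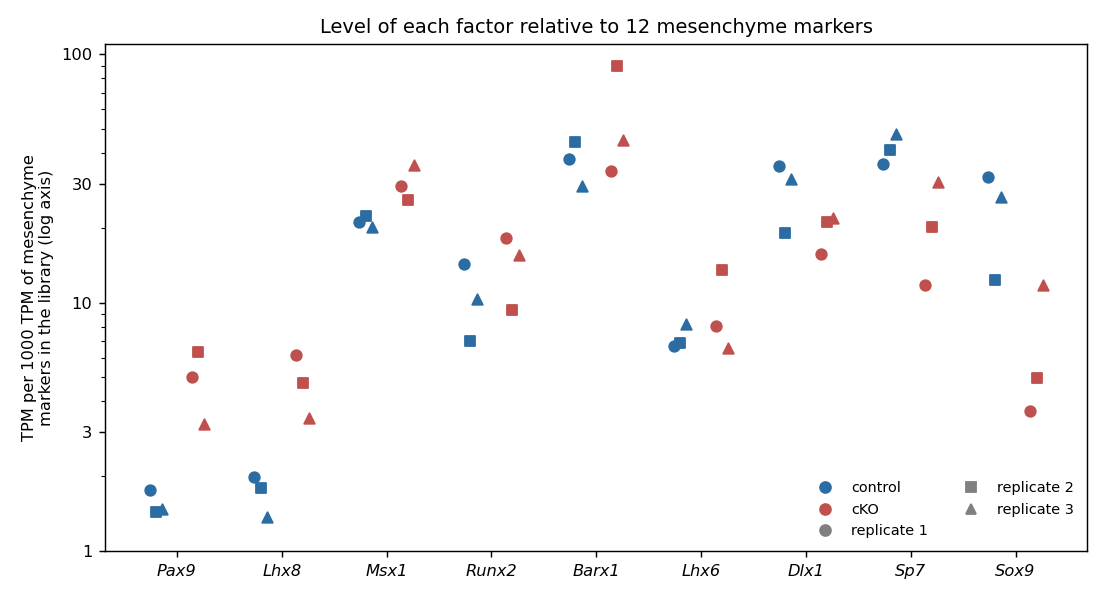
TPM of each factor per 1000 TPM of 12 mesenchyme markers in the same library (log axis), for control (blue) and cKO (red). *Pax9*, *Lhx8* and *Msx1* are higher and *Sp7* and *Sox9* lower without overlap, and the other 4 factors overlap. With the geometric mean of the markers as the reference, not drawn here, *Msx1* overlaps as well. The share of all genes without overlap on this scale was not computed.

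Other genes of the same programme were counted from 5 lists. Paralogues and partners of the factors had a median log2 fold change of 0.04 over 16 genes tested (0.00 over all genes tested, 1.49 over the 9 factors). EdgeR called 0 of them, and 4 of 16 were under an unadjusted p of 0.05, a share near the 24.5% of all tested genes. DESeq2 called 2 as higher, against 5.05% of all genes. *Lmo4*, a LIM-only cofactor, was at 20.9 ± 4.42 and 50.3 ± 17.9 CPM (SD, n = 3 per group) and *Ldb2*, a LIM-domain binding cofactor, at 5.21 ± 1.90 and 12.6 ± 5.87 CPM, and these were the ones DESeq2 called (adjusted p 0.000912 and 0.0316). *Sox5*, a partner of *Sox9* in cartilage, and *Runx3* had log2 fold changes of 1.66 (SE 0.73) and 0.81 (SE 0.59), with groups that overlapped. With the block, *Sox5* and *Lmo4* were called (edgeR, adjusted p 0.0238 and 0.0412).

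For the other transcription factors of jaw and tooth mesenchyme, the median log2 fold change was 1.60 over 30 genes tested, 29 were higher on average, and 18 were higher without overlap, against 14.5% of all tested genes. In edgeR's quasi-likelihood test 2 rose past the criterion, *Tfap2b* from 6.08 ± 2.10 to 37.4 ± 15.0 CPM and *Twist1* from 11.6 ± 4.28 to 54.5 ± 18.6 CPM (SD, n = 3 per group, adjusted p 0.0498 for both), the latter named after its value was seen. This count was 0 with other scalings, a stricter filter on low counts, limma-voom or log2 TPM, and when any library other than replicate 3 of cKO was left out. In DESeq2 16 of 30 were higher past the criterion, against 5.05% of all genes, and with the block 15 of 30, against 4.16%. None was lower past it in either. Among those of at least 5 CPM, *Eya1* had the largest log2 fold change, 3.61 (SE 0.72), followed by *Six2* with 2.74 (SE 0.61) and the forkhead factor *Foxf2* with 2.73 (SE 0.47). Their adjusted p values were 0.0660, 0.0727 and 0.0582 in edgeR, and 2.56e-06, 4.31e-05 and 1.04e-07 in DESeq2. The factor *Pitx1* was the 1 gene of this list that was lower, with a log2 fold change of -0.60, and it too was named after its value was seen.

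Genes that *Runx2* and *Sp7* control in bone and dentin split, with a median of -0.01 over 17 genes tested and 8 higher on average. EdgeR called 0, and 6 of 17 were under an unadjusted p of 0.05, against 24.5% of all tested genes. DESeq2 called 4 as higher and 1 as lower, against 5.05% and 1.88% of all genes, and the block 2 and 1, against 4.16% and 1.92%. *Mmp13*, a collagenase of bone and cartilage remodelling, was at 21.7, 22.6 and 4.11 CPM in control and at 3025, 242 and 708 CPM in cKO (log2 fold change 6.36, SE 1.17). *Tnfsf11*, the osteoclast-inducing ligand RANKL, had a log2 fold change of 5.54 (SE 1.06) and *Spp1*, osteopontin, 3.87 (SE 0.77), each without overlap. In control *Tnfsf11* was at 1.38, 1.15 and 0.190 CPM, the last at the floor of 3 counts, so the size of its fold change is uncertain. Replicate 1 of cKO was far above the other cKO libraries, at 98.4 against 11.9 and 17.4 CPM for *Tnfsf11*. For *Spp1* it was at 1017 against 116 and 364 CPM. *Dspp*, the main non-collagen dentin gene, was at 484, 1932 and 3488 CPM in control and at 16.0, 76.5 and 449 CPM in cKO. All its cKO values were below control, and the log2 fold change was -3.45 (SE 1.23). Adjusted p values for *Mmp13*, *Tnfsf11*, *Spp1* and *Dspp* were 0.0637, 0.0637, 0.0656 and 0.152 in edgeR and 7.59e-07, 7.02e-05, 0.000162 and 0.0484 in DESeq2. *Alpl*, named after its value was seen, was also lower without overlap, at 849 ± 67.6 and 445 ± 20.2 CPM (SD, n = 3 per group). Its log2 fold change of -0.93 was under the limit of the criterion, with an adjusted p of 0.0498 in edgeR and 3.37e-10 in DESeq2.

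Cartilage genes that *Sox9* controls were few in these libraries, as 8 of 16 were tested. Their median log2 fold change was 0.41, and 6 of 8 were higher on average. EdgeR called 0, and 4 of 8 were under an unadjusted p of 0.05, against 24.5% of all tested genes. DESeq2 called 1 as higher and 1 as lower, against 5.05% and 1.88% of all genes, and the block 3 and 1, against 4.16% and 1.92%. The higher one in DESeq2 was *Acan*, at 0.314, 0.666 and 0.126 CPM in control and 6.77, 2.71 and 1.05 CPM in cKO. The last control value was under the floor of that library, 0.190 CPM, so the size of the difference is uncertain. The adjusted p of *Acan* was 0.0877 in edgeR, 0.00378 in DESeq2 and 0.0241 in edgeR with the block. *Col2a1* was also higher without overlap (log2 fold change 0.48), and both were named after their values were seen. *Col9a3* was the lower one, at 198, 188 and 284 CPM in control and 88.7, 95.3 and 110.4 CPM in cKO (log2 fold change -1.18, SE 0.19). The corresponding adjusted p values were 0.0512 in edgeR, 4.25e-06 in DESeq2 and 0.00695 in edgeR with the block. *Col11a2*, *Col9a2* and *Hapln1* had log2 fold changes of -1.95 (SE 0.61), 1.93 (SE 0.83) and 1.30 (SE 0.95), and the groups overlapped for each. With the block *Col9a2* and *Hapln1* passed the criterion as higher (edgeR, adjusted p 0.0446 and 0.0155), while *Col11a2* did not (0.0756). Of 9 signalling genes that act with *Msx1* and *Pax9* in tooth mesenchyme, the Wnt effector *Lef1* rose in edgeR from 18.1 ± 1.89 to 44.6 ± 8.04 CPM (SD, n = 3 per group, adjusted p 0.0498). The number of signalling genes called was 0 with other scalings, a stricter filter on low counts or limma-voom, and when any library other than replicate 3 of cKO was left out. In DESeq2 and with the block *Inhba*, which encodes the activin A subunit, passed as well. It was at 4.33, 3.39 and 3.28 CPM in control and at 78.3, 16.2 and 16.6 CPM in cKO. The calls as higher were thus 1 of 9 in edgeR, 2 in DESeq2 and 2 with the block. The shares of all tested genes were 0.142%, 5.05% and 4.16%. In edgeR 2 of 9 were under an unadjusted p of 0.05, a share near the 24.5% of all tested genes. *Fgf10* and *Dkk2* had log2 fold changes of 0.91 (SE 0.92) and 0.72 (SE 0.50) with overlapping groups, and the median of this list was 0.64.

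**Figure D5:**
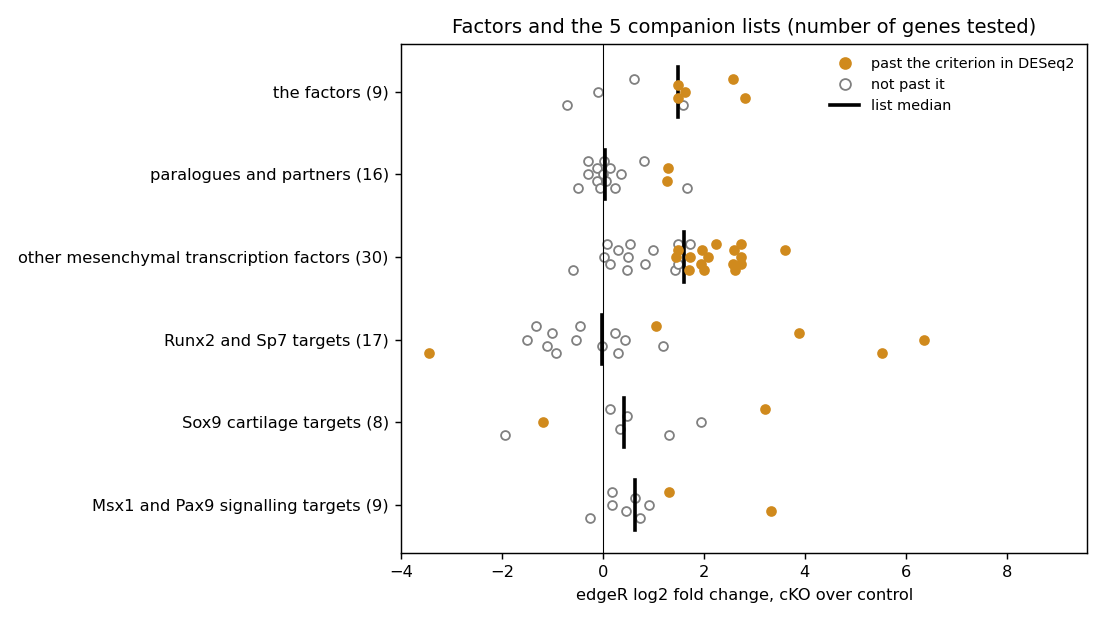
EdgeR log2 fold change (x axis) of each tested gene of the 9 factors and the 5 lists, in orange where DESeq2 called it, with the list median as a black bar. The medians of the factors (1.49) and of the other mesenchymal transcription factors (1.60) are the highest. Those of the paralogues (0.04) and of the Runx2 and Sp7 targets (-0.01) are the lowest. The Sox9 targets (0.41) and the Msx1 and Pax9 signalling genes (0.64) lie between. The factors and lists were chosen with earlier results of these data known.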

How the data were processed

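RNA-seq libraries from the IEE of E18.5 molars were compared between Kdf1 fl/fl (n = 3) and K14-Cre;Kdf1 fl/fl mice (n = 3). Per the labels, RNA was taken with TRIzol and libraries were made with an Illumina TruSeq kit. The submitters' processing notes name BWA 0.7.12, Picard 2.6.0 and StringTie, without their roles, and the genome build is not given in the sources used here. The authors deposited estimated counts per gene, without normalisation, of which 10.9% to 11.5% per library were not whole numbers. They also deposited TPM, scaled for length to an equal total per library, and FPKM. Neither FPKM nor the authors' group means were used here. The strand setting of the counting is not given, so reads of antisense or overlapping genes cannot be separated from those of a factor.

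Estimated counts were rounded. With R 4.3.3 and edgeR 4.0.16, genes were filtered with filterByExpr, scaled by TMM (factors 0.950 to 1.03) and tested by robust quasi-likelihood F-tests, two-sided, with Benjamini-Hochberg adjustment over all 14131 genes. SE is the log2 fold change divided by the root of F. The biological coefficient of variation was 25.4%. CPM used TMM-scaled library sizes. DESeq2 1.42.0, limma 3.58.1 (voom, and log2(TPM + 1) and log2(TPM + 0.1) for genes with a mean of at least 1 TPM in a group), other scalings and filters, an adjusted p of at most 0.1, the replicate block and the omission of each library were run as alternatives. The procedure was tested on simulated counts. Deviations of same-numbered libraries from their group means correlated across genes at 0.13, 0.32 and 0.50, each over the limit of 0.1, so the numbers were read as pairs. Differently numbered libraries correlated at -0.41 to 0.14, the highest being control 2 with cKO 1, which was slightly above the first same-numbered pair. This pairing rests on the data, not on a label.

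The factors and lists were chosen with earlier results of these data known. The genes named are the 9 factors, *Kdf1*, up to 4 genes per list with the largest absolute log2 fold change and at least 5 CPM in the higher group, the 2 genes nearest in pattern to each factor, and up to 2 leading markers per cell type. Other genes were named after their values were seen. Lists for erythroid cells (3099 to 4713 against 3105 to 5173 TPM), Schwann and neural cells (176 to 368 against 105 to 154 TPM) and keratinised epithelium (36.8 to 118 against 14.9 to 16.2 TPM) were also read. Floors and counting limits cover counting error only, since PCR copies are not independent molecules.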

Additional observations from a re-analysis of the deposited data

How the results depend on the processing

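Of 135 values for single factors under the alternatives, 115 kept their direction and their side of the criterion, 14 were newly past it and 6 turned in sign. All 6 were those of *Sp7*, whose log2 fold change was 0.016 in limma-voom, 0.015 with the replicate block, 0.081 on log2(TPM + 1), 0.084 on log2(TPM + 0.1), and -0.39 to 0.44 with 1 library left out, above 0 without replicate 2 of control or replicate 1 of cKO. The median log2 fold change of the 9 factors stayed between 1.01 and 1.98. The number of factors past the criterion was 0 in edgeR, and 5 in DESeq2, 5 with the replicate block, 4 at an adjusted p of at most 0.1 and 0 to 3 with 1 library left out. The 3 were *Pax9*, *Lhx8* and *Runx2* without replicate 3 of cKO, and *Msx1* was the 1 called without replicate 2 of control. Over all alternatives the adjusted p ran from 0.00440 to 0.334 for *Msx1*, 2.33e-06 to 0.273 for *Pax9*, 0.00363 to 0.453 for *Barx1*, 0.0286 to 0.409 for *Lhx6*, 0.000162 to 0.285 for *Lhx8*, 0.0388 to 0.438 for *Dlx1*, 9.93e-05 to 0.278 for *Runx2*, 0.378 to 0.985 for *Sp7* and 0.0189 to 0.285 for *Sox9*.

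Over all genes, 61 passed in edgeR. In DESeq2 there were 980, with the replicate block 860, at an adjusted p of at most 0.1 669, without a filter 103, with library size alone 9, with DESeq2's size factors 7, with at least 10 counts in every library 6 and in limma-voom 6, and 1 to 465 with 1 library left out (465 without replicate 3 of cKO, 16 without replicate 2 of control, 1 in each other case). For the 5 lists, in the order paralogues and partners, other mesenchymal factors, Runx2 and Sp7 targets, Sox9 targets, and Msx1 and Pax9 signalling, edgeR gave 0, 2, 0, 0 and 1. DESeq2 gave 2, 16, 5, 2 and 2, the replicate block 2, 15, 3, 4 and 2, and an adjusted p of at most 0.1 gave 1, 11, 3, 2 and 2. With DESeq2's size factors, library size alone, at least 10 counts in every library and limma-voom, the other mesenchymal factors had 0 and the signalling genes 0 in each. On log2(TPM + 1) and log2(TPM + 0.1) the other mesenchymal factors had 0 and 0 and the Sox9 targets 1 and 1, and without a filter the Sox9 targets had 1. Leaving out 1 library gave 0 in every fit for the paralogues, 0 to 7 for the other mesenchymal factors, 0 to 2 for the Runx2 and Sp7 targets, 0 to 2 for the Sox9 targets and 0 to 2 for the signalling genes, with every value above 0 coming without replicate 3 of cKO. The cause of these shifts was not tested. The paired fit rests on 3 pairs. The lowest count of a factor in a library was 26 (*Lhx8*), and the part of depth in these calls was not tested.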

Other observations

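The epithelial marker list did not differ evenly between the groups, given here as values that belong to no comparison above. *Krt5*, a basal keratin, was at 4280, 3328 and 4777 TPM in control and 2185, 2129 and 2947 TPM in cKO, without overlap. *Epcam*, an epithelial adhesion gene named after its values were seen, was at 402, 252 and 264 TPM in control and 304, 281 and 334 TPM in cKO, and the groups overlapped. The 9 factors summed to 202, 465 and 198 TPM in control and to 621, 805 and 379 TPM in cKO.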
